A study of Mus musculus with 18 samples.

Results

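The mRNAs described here encode chromatin remodelers and histone modifiers, the enzymes and complex subunits that move nucleosomes or add and remove marks on histones. They were chosen by symbol alone, as the probe sets matched to a single gene of the Chd, Baz, Bptf, Smarc, Arid, Hdac, Kdm, Kmt2, Kmt5, Setd and Ehmt families, without Kdm5c, Kdm5d and Kdm6a. This gave 134 of 45037 probe sets, and 68 of the 17097 genes that have a probe set of their own. A probe set was tested where the mean of its log2 values over the 18 arrays exceeded 5.95, the 40th percentile, which left 112 of the 134 probe sets and 63 of the 68 genes. Kdm1b, Kdm4a, Kdm4c, Kdm4d and Smarca1 had no probe set past that level and were not tested. A gene with several probe sets is represented by the brightest one, unless its probe sets are named.

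RNA was taken from the cortex and striatum, dissected together, of 3 TgCPEB4∆4 mice and 3 CTRL mice at 6 weeks of age. Each mouse gave 3 preparations, each hybridised to 1 array. ELUTED is the RNA released from poly(U)-agarose at 90% formamide, rich in long poly(A) tails. WASH is the RNA released at 25% formamide, rich in short tails, and INPUT is total RNA. The labels give neither the strain nor the promoter and cell type that drive the transgene, so which cells carry it is not stated in these sources. In these bulk samples, fewer cells of a type and less RNA per cell cannot be told apart.

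CPEB4 belongs to the cytoplasmic polyadenylation element binding proteins, which attach to U-rich elements near the 3′ end of mRNAs and recruit enzymes that lengthen or shorten the poly(A) tail. Long tails generally favour translation, and short tails go with silent or decaying mRNAs. Chromatin regulators are abundant in neurons, and loss of 1 copy of many of them (CHD8, ARID1A, KMT2C, EHMT1 and SETD5 among others) causes developmental disorders of the brain in people.

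The tail ratio used below is the log2 ELUTED value minus the log2 WASH value within 1 mouse, so that 1 stands for a 2-fold higher value in ELUTED. It was tested against 0 in each genotype with limma, p-values being adjusted by Benjamini-Hochberg over the 27022 probe sets kept, and a gene is said to lie toward long or short tails where the adjusted p was under 0.05. Tail ratios spread unequally between mice. Their SD over all probe sets was 0.614, 0.621 and 0.388 in TgCPEB4∆4 mice 1 to 3, against 1.19, 0.593 and 0.859 in CTRL mice 1 to 3. The ELUTED array of CTRL mouse 1 also stood apart in its nonspecific control probe sets, whose highest value was 7.30 there and between 5.43 and 6.29 on the other ELUTED and WASH arrays. The mouse Cpeb4 probe sets did not differ between genotypes in INPUT (0.27 and 0.01 on the log2 scale, limma adjusted p = 0.64 and 0.99), and the sources do not state whether they detect transgene RNA.

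Mean INPUT values of the 63 genes ran from 5.97 to 12.09 in TgCPEB4∆4 mice (median 8.76) and from 5.93 to 11.99 in CTRL mice (median 8.82). Kdm1a was the brightest in both genotypes. Family medians in INPUT lay between 7.55 (KDM) and 9.20 (BAZ and BPTF) in TgCPEB4∆4 mice, against 7.63 and 9.13 in CTRL mice. These are probe set values, so levels of different genes are not per length and their order is only that of the arrays. On all 6 arrays of a preparation, 48 of the 63 genes were above the highest nonspecific control in INPUT, 51 in ELUTED and 62 in WASH, where Arid3a was the exception. The median SD between mice was 0.11 in INPUT, 0.169 in ELUTED and 0.133 in WASH for TgCPEB4∆4 mice, against 0.105, 0.333 and 0.078 for CTRL mice, so the CTRL mice differed most among themselves in ELUTED.

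In TgCPEB4∆4 mice, 8 of the 63 chromatin genes lay toward long tails (background 6.5% of the 11974 genes tested) and 3 toward short tails (background 20.5%). In CTRL mice, 17 lay toward long tails (background 20.5%) and 13 toward short tails (background 39.9%). The median tail ratio of the chromatin genes was -0.02 in TgCPEB4∆4 mice and 0.02 in CTRL mice, against -0.17 and -0.18 over all genes tested. In the brightest of 4 equal bins of probe sets, 10 of 29 chromatin genes (34.5%) lay toward long tails in CTRL mice against 11.6% of all genes, and 24.1% lay toward short tails against 53.5%. In the next bin below, 23.8% of 21 chromatin genes lay toward long tails in CTRL mice against 13.5% of all genes. In the bin below that the order was the other way, with 0 of 10 chromatin genes toward long tails in either genotype, against 9.83% of all genes in TgCPEB4∆4 mice and 26.8% in CTRL mice. The dimmest bin held 3 chromatin genes. Quantile-normalizing the deposited values again moved the median of all genes to -0.02 in TgCPEB4∆4 mice and to -0.002 in CTRL mice. The chromatin genes then stood at 0.17 and 0.35, with 8 long and 3 short calls in TgCPEB4∆4 mice and 28 long and 8 short calls in CTRL mice. Of all genes, 5.54% were then long and 8.13% short in TgCPEB4∆4 mice, and 24.7% and 29.9% in CTRL mice. Without TgCPEB4∆4 mouse 1, or without mouse 2, no gene of the array passed in TgCPEB4∆4 mice by limma (lowest adjusted p over all genes 0.057 and 0.056). In either case 9 of the 63 chromatin genes (14.3%) had an unadjusted p under 0.05, where 23% of all genes did without mouse 1 and 20.5% without mouse 2. With all mice 16 chromatin genes did (background 41.3%). In CTRL mice 34 had an unadjusted p under 0.05 (background 65.1%). Counted by probe set, 12 of 112 lay toward long tails (background 12.7%) and 10 toward short tails (background 19.1%) in TgCPEB4∆4 mice, and 29 (background 27.6%) and 24 (background 35.4%) in CTRL mice. The genotypes share one estimate of the spread, so calls in TgCPEB4∆4 mice also depend on the CTRL mice. Without CTRL mouse 1 they were 10 long and 7 short genes (all genes 12% and 33.7%).

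**Figure D1:**
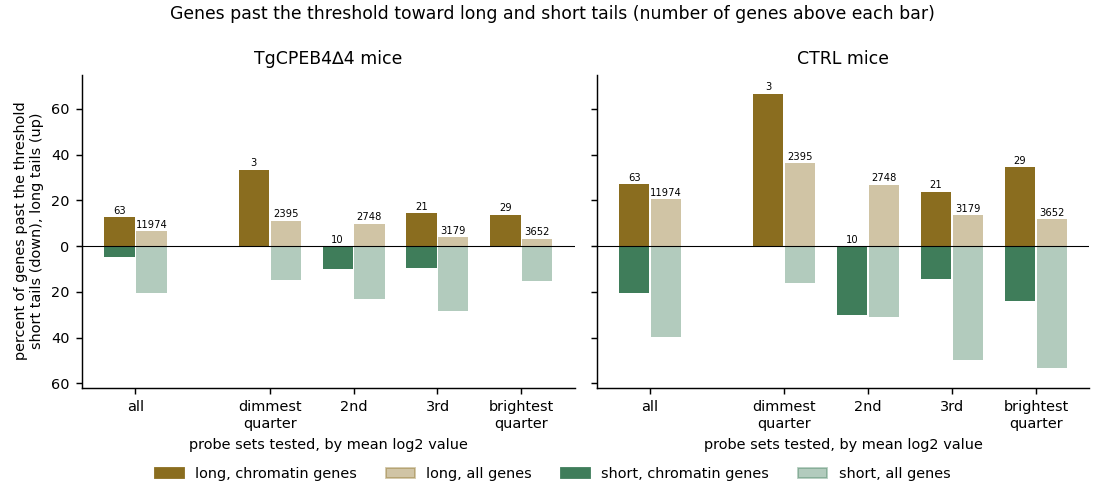
Percent of genes whose tail ratio passed the threshold (vertical axis, percent) toward long tails (upward bars) and short tails (downward bars), for chromatin genes (dark) and all genes tested (pale), in TgCPEB4∆4 mice (left panel) and CTRL mice (right panel), overall and in 4 equal bins of probe sets by mean log2 value; the number above each bar is the number of genes. In the brightest bin, 34.5% of the chromatin genes lay toward long tails in CTRL mice, against 11.6% of all genes, and in the second bin from the left 0 of 10 did, against 26.8%.

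All 8 long calls and all 3 short calls of the TgCPEB4∆4 mice were also made in CTRL mice, where they were 47.1% of the long calls and 23.1% of the short calls. Over all genes, 94.9% of the long and 90.2% of the short calls of TgCPEB4∆4 mice were also made in CTRL mice, where they were 30.0% of the long and 46.3% of the short calls. Over the 63 genes the mean tail ratios of the genotypes had a Spearman rho of 0.784 (0.881 over all genes), a description across genes, which are not independent replicates. The genotype means had the same sign for 46 of 63 genes (73.0%, against 87.3% of all genes), and the CTRL mean was farther from 0 for 46 of 63 (73.0%, against 76.8% of all genes). A mean INPUT value between the ELUTED and the WASH mean was found for 4 of the 8 long calls (84.3% over all genes called long) and for all 3 short calls (82.7% over all genes called short) in TgCPEB4∆4 mice. In CTRL mice it was found for 13 of the 17 long calls (76.5%, against 85.6%) and for 11 of the 13 short calls (84.6%, against 90.3%). Among the short calls of CTRL mice, 6 genes (Chd9, Hdac2, Kdm3a, Setd3, Smarca5 and Smarcad1) were not above the highest nonspecific control on all 6 ELUTED and WASH arrays, and among the long calls 2 genes were not (Arid3a and Kdm2a).

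**Figure D2:**
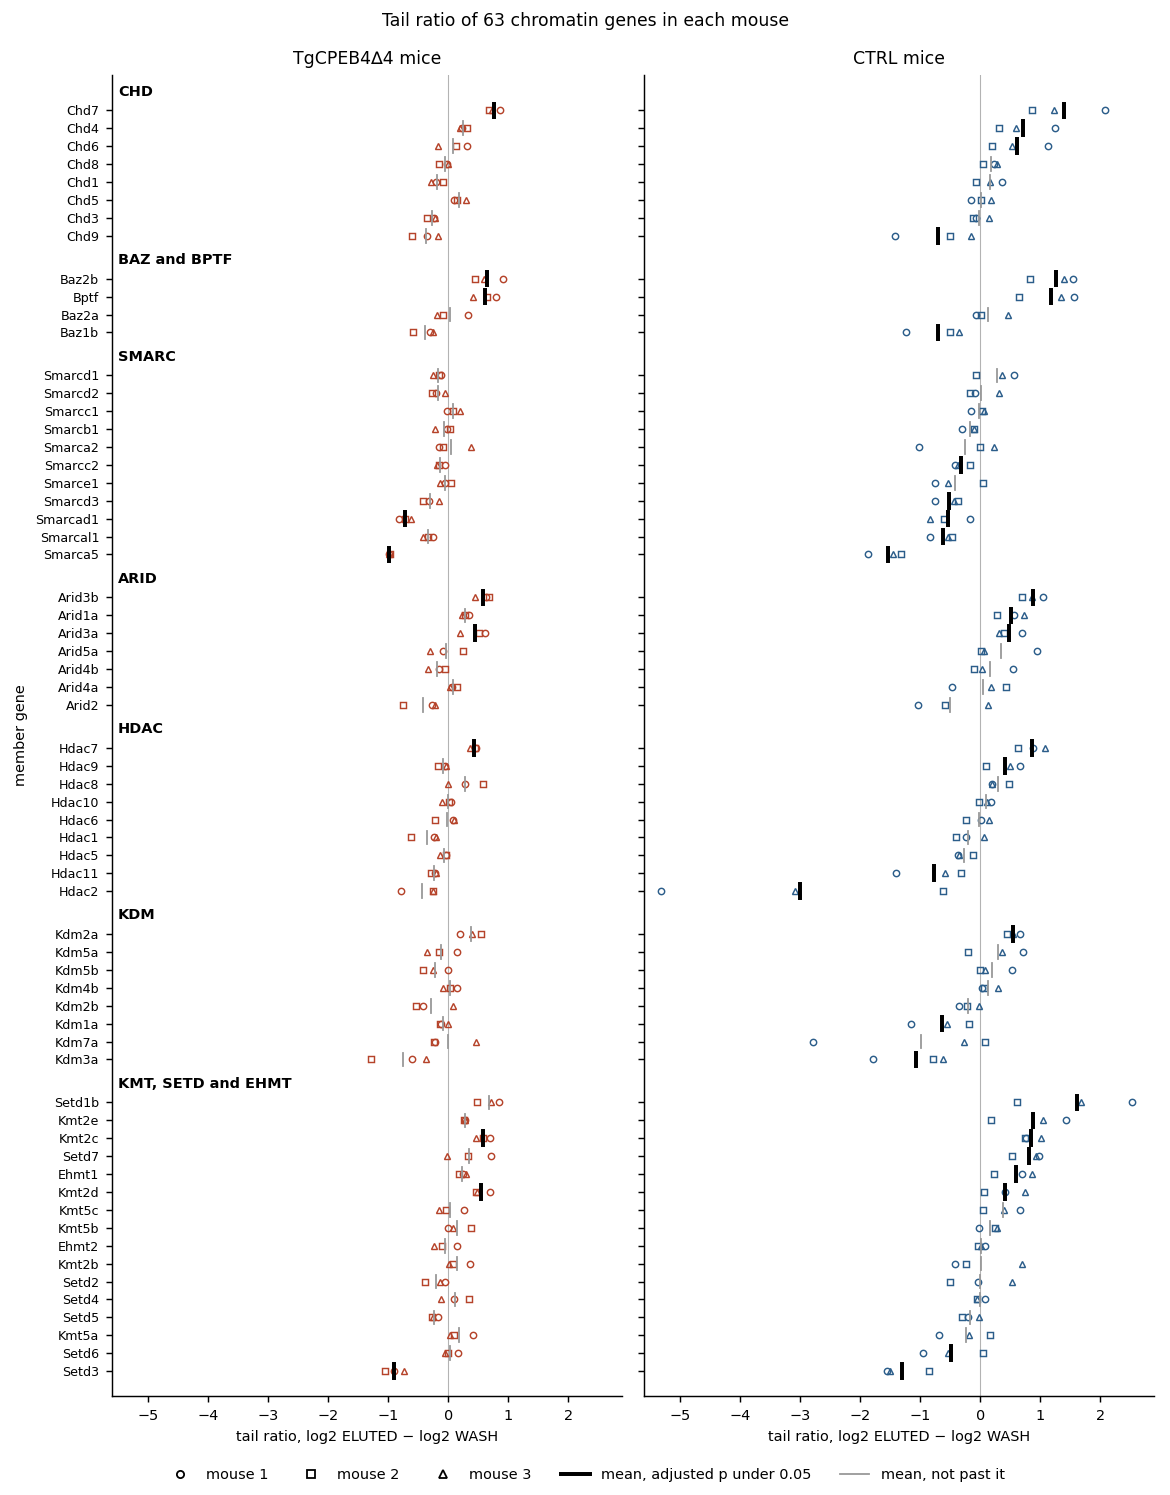
Tail ratio (horizontal axis, log2 ELUTED minus log2 WASH) of each of the 63 chromatin genes (rows, by family) in TgCPEB4∆4 mice (left panel) and CTRL mice (right panel); each symbol is 1 mouse and each vertical tick the mean of 3 mice, black where the adjusted p was under 0.05. Smarca5 lies near -1 in all 3 TgCPEB4∆4 mice, and Hdac2 reaches -5.32 in CTRL mouse 1.

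By the brightest probe set of each gene, the SMARC family, the core and catalytic subunits of SWI/SNF complexes together with related ATPases, held no long call in either genotype. It had 2 short calls among 11 genes in TgCPEB4∆4 mice (18.2%, background 20.5%) and 5 in CTRL mice (45.5%, background 39.9%). The background of long calls was 6.5% in TgCPEB4∆4 mice and 20.5% in CTRL mice. These backgrounds also apply to the counts of the families below, unless another scaling is named. After renewed quantile normalization the backgrounds were 5.54% long and 8.13% short in TgCPEB4∆4 mice, and 24.7% and 29.9% in CTRL mice. The SMARC median tail ratios of -0.17 and -0.32 moved to 0.04 and -0.008 when the values were quantile-normalized again, where CTRL mice had 2 long and 3 short calls. Smarca5 encodes SNF2H, the ATPase of the ISWI complexes, which space nucleosomes. Its ELUTED values were 7.81, 7.61 and 7.85 in TgCPEB4∆4 mice, against WASH values of 8.79, 8.58 and 8.85. In CTRL mice they were 6.73, 7.22 and 7.01 in ELUTED, against 8.60, 8.54 and 8.46 in WASH. ELUTED lay below WASH in every mouse, without overlap in either genotype. The tail ratio was -0.98, -0.97 and -0.99 in TgCPEB4∆4 mice (mean -0.98 ± 0.14 SE, limma adjusted p = 0.0046) and -1.87, -1.32 and -1.45 in CTRL mice (mean -1.54 ± 0.14 SE, adjusted p = 0.00045). All 3 probe sets of Smarca5 lay toward short tails in both genotypes, with means of -0.98 to -1.07 in TgCPEB4∆4 mice and -1.48 to -2.15 in CTRL mice.

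Smarcad1, a remodeler known for keeping heterochromatin silent through replication, had tail ratios of -0.82, -0.72 and -0.61 in TgCPEB4∆4 mice and -0.17, -0.61 and -0.84 in CTRL mice, and lay toward short tails in both (limma adjusted p = 0.012 and 0.015). Smarcal1, which rewinds DNA at stalled replication forks, had -0.25, -0.34 and -0.41 in TgCPEB4∆4 mice and -0.84, -0.47 and -0.53 in CTRL mice, and passed in CTRL mice (adjusted p = 0.076 and 0.0043). Smarcd3 (mean -0.30 in TgCPEB4∆4 mice and -0.52 in CTRL mice) and Smarcc2 (-0.13 and -0.32), both subunits of the neuronal SWI/SNF complex, passed in CTRL mice as well. Smarcd3 did not pass when the values were quantile-normalized again (-0.11 in CTRL mice, limma adjusted p = 0.44), and Smarcc2 lost its call under 9 of the alternatives run, with -0.07 (adjusted p = 0.65) after quantile normalization. Smarca2, the BRM ATPase of SWI/SNF, had 0.05 ± 0.23 in TgCPEB4∆4 mice and -0.26 ± 0.23 (SE) in CTRL mice, and Smarcb1, a core subunit, -0.07 ± 0.12 and -0.17 ± 0.12, none past the threshold. A dimmer Smarcb1 probe set passed toward long tails in both genotypes (0.56 and 0.51). Smarca4 and Arid1b are not analysed here.

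The ARID family holds DNA-binding subunits of SWI/SNF (Arid1a, Arid2) and of other complexes, and transcription factors of the Arid3 type. Of its 7 genes, 2 lay toward long tails in TgCPEB4∆4 mice and 3 in CTRL mice, none toward short tails, with medians of 0.08 and 0.34 that stayed above 0 (0.31 and 0.35) when the values were quantile-normalized again. Arid3b had tail ratios of 0.63, 0.69 and 0.45 in TgCPEB4∆4 mice and 1.05, 0.70 and 0.87 in CTRL mice (limma adjusted p = 0.013 and 0.0011). Arid1a, a subunit of the BAF form of SWI/SNF, had 0.35, 0.28 and 0.23 in TgCPEB4∆4 mice and 0.56, 0.27 and 0.72 in CTRL mice, and passed in CTRL mice (adjusted p = 0.12 and 0.0098). Arid2, of the PBAF form, had -0.42 ± 0.22 and -0.50 ± 0.22 (SE), not past the threshold, and its 4 probe sets ran from -0.50 to 0.47 in CTRL mice, where the one at 0.47 passed (adjusted p = 0.012). Arid3a passed in both genotypes with means of 0.45 and 0.47. Its ELUTED values were 6.02 to 6.43 in TgCPEB4∆4 mice and 6.35 to 6.49 in CTRL mice, and it was above the highest nonspecific control on no INPUT array and on 1 of 3 WASH arrays of TgCPEB4∆4 mice.

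The CHD family consists of remodelers with chromodomains, which read methylated histone H3. Of its 8 genes, 1 lay toward long tails in TgCPEB4∆4 mice and 3 toward long and 1 toward short tails in CTRL mice, with medians of 0.02 and 0.17. When the values were quantile-normalized again the medians were 0.30 and 0.54. TgCPEB4∆4 mice then had 1 long and 0 short calls (background 5.54% and 8.13%), and CTRL mice 7 long and 1 short (background 24.7% and 29.9%). Chd7, which acts at enhancers and is mutated in CHARGE syndrome in people, had ELUTED values of 8.68, 8.31 and 8.18 in TgCPEB4∆4 mice, against 7.81, 7.64 and 7.45 in WASH. In CTRL mice it had 9.59, 8.30 and 8.67 in ELUTED, against 7.51, 7.43 and 7.45 in WASH. ELUTED lay above WASH in every mouse, with tail ratios of 0.87, 0.68 and 0.73 in TgCPEB4∆4 mice (mean 0.76 ± 0.21 SE, limma adjusted p = 0.029) and 2.08, 0.87 and 1.23 in CTRL mice (mean 1.39 ± 0.21 SE, adjusted p = 0.0012). A dimmer probe set of Chd7 had means of -0.11 and 0.00 and did not pass. Chd4, the ATPase of the NuRD complex, had 0.23, 0.31 and 0.19 in TgCPEB4∆4 mice and 1.25, 0.31 and 0.59 in CTRL mice (adjusted p = 0.31 and 0.0088). Chd6 passed toward long tails in CTRL mice (means 0.09 and 0.61) and Chd9 toward short tails (-0.38 and -0.70). The 2 Chd6 probe sets had opposite signs in CTRL mice, and their mean did not pass (0.18, limma adjusted p = 0.26). The Chd6 call was also lost without CTRL mouse 1 or 3 (adjusted p = 0.09 and 0.062), and that of Chd9 without CTRL mouse 1 (0.11). Chd5, the NuRD ATPase of neurons, had 0.17 ± 0.12 in TgCPEB4∆4 mice and 0.01 ± 0.12 (SE) in CTRL mice. Chd8, a frequently mutated autism gene, had -0.06 ± 0.12 and 0.18 ± 0.12 (SE) at its brightest probe set, which did not pass. Its other 2 probe sets passed toward long tails in CTRL mice (0.62 and 0.57), and the second of them in TgCPEB4∆4 mice as well (0.51, adjusted p = 0.016). Chd2 is not analysed here.

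**Figure D3:**
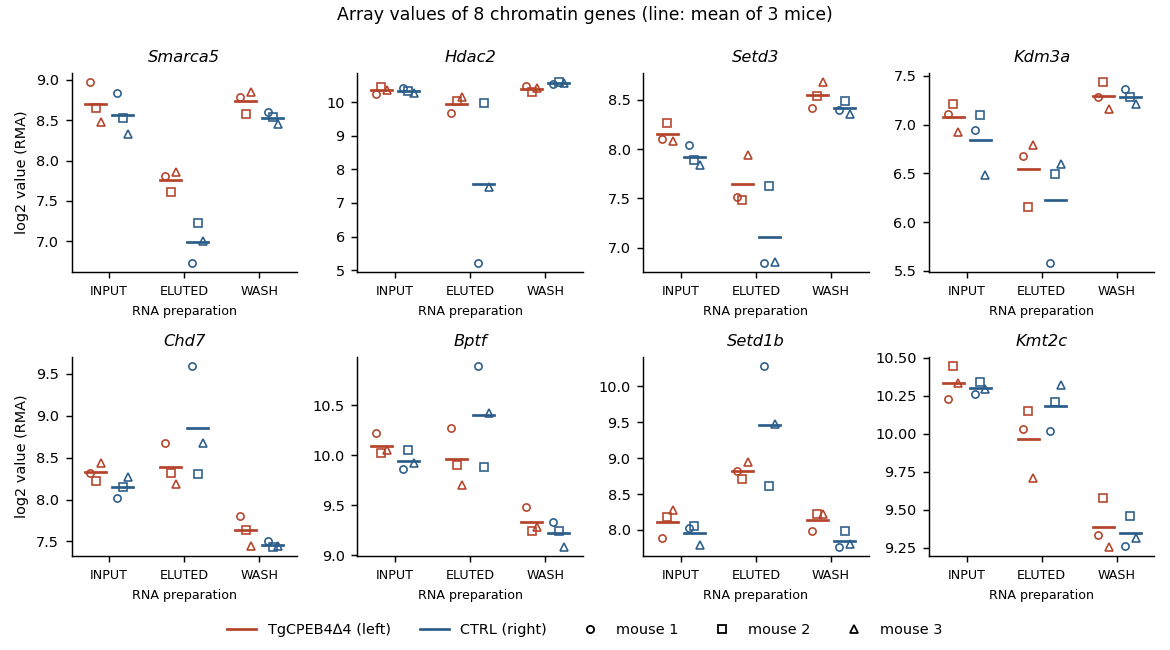
RMA log2 values (vertical axis, own scale for each gene) of 8 chromatin genes in INPUT, ELUTED and WASH, with TgCPEB4∆4 mice left of CTRL mice; each symbol is 1 array and each line the mean of 3 mice. Smarca5, Hdac2, Setd3 and Kdm3a (top) have their lowest means in ELUTED, and Chd7, Bptf, Setd1b and Kmt2c (bottom) are higher in ELUTED than in WASH; Hdac2 is at 5.22 in ELUTED of CTRL mouse 1.

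The BAZ proteins and BPTF are large regulatory subunits of ISWI complexes, to which they bring bromodomains and PHD fingers. Of 4 genes, 2 lay toward long tails in TgCPEB4∆4 mice, and 2 toward long and 1 toward short tails in CTRL mice, with medians of 0.32 and 0.66. When the values were quantile-normalized again the medians were 0.58 and 1.01, and CTRL mice had 3 long and 0 short calls (background 24.7% and 29.9%). Bptf, of the NURF complex, had ELUTED values of 10.27, 9.90 and 9.70 in TgCPEB4∆4 mice, against 9.48, 9.24 and 9.29 in WASH, and 10.89, 9.88 and 10.42 in CTRL mice, against 9.34, 9.24 and 9.08. It lay toward long tails in both genotypes (0.62 ± 0.18 SE in TgCPEB4∆4 mice, limma adjusted p = 0.035, and 1.18 ± 0.18 SE in CTRL mice, adjusted p = 0.0013). The call in TgCPEB4∆4 mice was lost under 6 of the alternatives run. Among them were no pairing within mice (limma adjusted p = 0.056) and the mean of its probe sets (adjusted p = 0.13). A second Bptf probe set also passed in both (0.50 and 0.66), while the other 2 did not pass. Baz2b, another ISWI partner, had tail ratios of 0.91, 0.45 and 0.60 in TgCPEB4∆4 mice and 1.55, 0.82 and 1.40 in CTRL mice at its brightest probe set (adjusted p = 0.024 and 0.00085). Its second probe set passed in the opposite direction, with means of -0.77 in TgCPEB4∆4 mice and -0.66 in CTRL mice (adjusted p = 0.042 and 0.039). Baz1b, of the WICH complex and deleted in Williams syndrome in people, had -0.30, -0.58 and -0.26 in TgCPEB4∆4 mice and -1.25, -0.51 and -0.35 in CTRL mice, and lay toward short tails in CTRL mice (adjusted p = 0.14 and 0.011). This call was lost after quantile normalization (-0.30, limma adjusted p = 0.14). A dimmer Baz1b probe set had means of 0.10 and 0.71 and did not pass.

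Among the 9 histone deacetylases, 1 lay toward long tails in TgCPEB4∆4 mice, and 2 toward long and 2 toward short tails in CTRL mice. Their medians of -0.07 and -0.03 turned to 0.10 and 0.14 when the values were quantile-normalized again. Hdac2, with HDAC1 the catalytic subunit of the NuRD, Sin3 and CoREST complexes, had ELUTED values of 9.68, 10.04 and 10.15 in TgCPEB4∆4 mice, against 10.47, 10.29 and 10.41 in WASH. In CTRL mice it had 5.22, 9.97 and 7.49 in ELUTED, against 10.54, 10.59 and 10.58 in WASH. INPUT values were alike in all mice, between 10.24 and 10.44, and the low values were those of CTRL mice 1 and 3 in ELUTED alone. The tail ratio was -0.79, -0.25 and -0.26 in TgCPEB4∆4 mice (mean -0.43 ± 0.68 SE, limma adjusted p = 0.64) and -5.32, -0.62 and -3.10 in CTRL mice (mean -3.01 ± 0.68 SE, adjusted p = 0.006). The SE pools both genotypes, so that of the TgCPEB4∆4 mean takes in the wide spread of the CTRL values. In ELUTED of CTRL mouse 1 the value was below the highest nonspecific control of that array (7.30), and the mean without that mouse was -1.86 (adjusted p = 0.0035). A second, dimmer Hdac2 probe set had means of 0.28 and 0.24 and did not pass. Hdac11, the only class IV deacetylase, had -0.22, -0.29 and -0.20 in TgCPEB4∆4 mice and -1.41, -0.32 and -0.59 in CTRL mice (adjusted p = 0.37 and 0.0098), where the call was lost after quantile normalization (-0.40, adjusted p = 0.07).

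Hdac7, a class IIa deacetylase, lay toward long tails in both genotypes, with tail ratios of 0.46, 0.45 and 0.37 in TgCPEB4∆4 mice and 0.87, 0.64 and 1.08 in CTRL mice (limma adjusted p = 0.039 and 0.0012). Its call in TgCPEB4∆4 mice was lost under 7 of the alternatives run. Among them were trended robust eBayes (limma adjusted p = 0.053) and the mean of its probe sets (adjusted p = 0.08). Hdac9, of the same class, had -0.08 ± 0.14 in TgCPEB4∆4 mice and 0.41 ± 0.14 (SE) in CTRL mice at its brightest probe set, and passed in CTRL mice (adjusted p = 0.032). Its dimmer probe set passed toward short tails in both, with means of -0.72 and -1.05 (adjusted p = 0.023 and 0.0022). Hdac1 (-0.36 ± 0.15 and -0.20 ± 0.15 SE) and Hdac6, the cytoplasmic tubulin deacetylase (-0.02 ± 0.14 and -0.03 ± 0.14 SE), did not pass in either genotype. Hdac3 and Hdac4 are not analysed here.

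The lysine demethylases of the KDM family held no call among 8 genes in TgCPEB4∆4 mice, and 1 long and 2 short calls in CTRL mice. Their medians of -0.10 and -0.03 turned to 0.02 and 0.21 when the values were quantile-normalized again. Kdm3a, which removes methyl groups from H3K9, had tail ratios of -0.60, -1.28 and -0.37 in TgCPEB4∆4 mice and -1.79, -0.79 and -0.62 in CTRL mice (limma adjusted p = 0.051 and 0.0071). Kdm1a (LSD1), the flavin-dependent H3K4 demethylase with a neuronal splice form, had -0.11, -0.13 and -0.002 in TgCPEB4∆4 mice and -1.16, -0.18 and -0.56 in CTRL mice (adjusted p = 0.74 and 0.016). Its second probe set passed the same way in CTRL mice (-1.55). Kdm2a, which demethylates H3K36, lay toward long tails in CTRL mice (0.38 in TgCPEB4∆4 mice, adjusted p = 0.052, and 0.55, adjusted p = 0.0064), and in ELUTED of CTRL mouse 1 was below the highest nonspecific control. Kdm5b, an H3K4 demethylase, had -0.22 ± 0.15 and 0.20 ± 0.15 (SE) and did not pass at its brightest probe set, while its dimmer one passed toward short tails in both genotypes (-0.51 and -0.52). Kdm7a had -2.79 in CTRL mouse 1 against 0.08 and -0.28 in CTRL mice 2 and 3, and did not pass (adjusted p = 0.094). A dimmer Kdm7a probe set passed toward long tails in CTRL mice (0.71). Kdm6b is not analysed here.

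The lysine methyltransferases formed the largest group, with 2 long and 1 short call among 16 genes in TgCPEB4∆4 mice and 6 long and 2 short calls in CTRL mice, with medians of 0.15 and 0.09 (0.42 and 0.48 when quantile-normalized again). Of the 4 Kmt2 genes tested, Kmt2c, Kmt2d and Kmt2e lay toward long tails in CTRL mice. Kmt2c and Kmt2d, which place H3K4 monomethylation at enhancers, passed in both genotypes. Kmt2c had 0.70, 0.58 and 0.46 in TgCPEB4∆4 mice and 0.76, 0.75 and 1.00 in CTRL mice (limma adjusted p = 0.013 and 0.0011). Kmt2d had 0.70, 0.47 and 0.48 in TgCPEB4∆4 mice and 0.41, 0.06 and 0.74 in CTRL mice (adjusted p = 0.029 and 0.047). The Kmt2d call in CTRL mice was lost under 8 of the alternatives run. Among them were trended robust eBayes (limma adjusted p = 0.051) and rescaled tail ratios (adjusted p = 0.07). Kmt2e, whose SET domain lacks known enzyme activity, had 0.28, 0.26 and 0.28 in TgCPEB4∆4 mice and 1.42, 0.17 and 1.05 in CTRL mice (adjusted p = 0.34 and 0.008). Kmt2b had 0.15 ± 0.21 and 0.01 ± 0.21 (SE), and Kmt2a is not analysed here.

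Setd1b, an H3K4 methyltransferase of the SET1 complex, had the highest mean of the 63 genes in CTRL mice. Its ELUTED values were 8.83, 8.70 and 8.94 in TgCPEB4∆4 mice, against 7.98, 8.22 and 8.23 in WASH, and 10.28, 8.61 and 9.48 in CTRL mice, against 7.76, 7.99 and 7.80. Its tail ratios were 0.84, 0.49 and 0.72 in TgCPEB4∆4 mice (mean 0.68 ± 0.30 SE, limma adjusted p = 0.11) and 2.52, 0.61 and 1.68 in CTRL mice (mean 1.61 ± 0.30 SE, adjusted p = 0.0026). Setd7, which methylates H3K4 and several other proteins, and Ehmt1 (GLP), of the H3K9 pair with G9a, also lay toward long tails in CTRL mice (0.34 and 0.24 in TgCPEB4∆4 mice, 0.81 and 0.59 in CTRL mice). The 2 Setd7 probe sets had opposite signs in CTRL mice, and their mean did not pass (0.12, limma adjusted p = 0.46). The Ehmt1 call was lost without CTRL mouse 3 (adjusted p = 0.065). Ehmt2 (G9a) had -0.06 ± 0.13 and 0.02 ± 0.13 (SE). Setd2, which places H3K36 trimethylation, had -0.20 ± 0.19 and -0.001 ± 0.19 (SE), Setd5 -0.23 ± 0.12 and -0.18 ± 0.12 (SE), and Kmt5b, which methylates H4K20, 0.15 ± 0.14 and 0.17 ± 0.14 (SE), none past the threshold. A dimmer Kmt5b probe set passed toward long tails in CTRL mice (1.15).

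Setd3, an enzyme that methylates a histidine of actin rather than a histone, had the lowest mean of the methyltransferase group in both genotypes. Its ELUTED values were 7.51, 7.48 and 7.94 in TgCPEB4∆4 mice, against 8.42, 8.53 and 8.68 in WASH, and 6.85, 7.62 and 6.85 in CTRL mice, against 8.40, 8.48 and 8.36. Its tail ratios were -0.91, -1.05 and -0.74 in TgCPEB4∆4 mice (mean -0.90 ± 0.16 SE, limma adjusted p = 0.008) and -1.55, -0.86 and -1.50 in CTRL mice (mean -1.31 ± 0.16 SE, adjusted p = 0.0007). Setd6, which methylates the NF-kappa-B subunit RelA, had 0.04 in TgCPEB4∆4 mice and -0.48 in CTRL mice, and passed in CTRL mice (adjusted p = 0.89 and 0.048). That call was lost under 11 of the alternatives run, among them no filter on dim probe sets (limma adjusted p = 0.053), trended robust eBayes (0.055) and quantile normalization (-0.11, adjusted p = 0.59).

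Several genes gave different answers at different probe sets. Of the 32 chromatin genes with more than 1 probe set tested, 17 (53.1%) had mean tail ratios of both signs in TgCPEB4∆4 mice and 19 (59.4%) in CTRL mice, against 36.2% and 40% of the 4622 genes of the array with several probe sets. Probe sets passed the threshold in opposite directions for Baz2b in TgCPEB4∆4 mice and for Baz2b, Hdac9 and Smarcd2 in CTRL mice, 3.12% and 9.38% of the 32 genes against 2.08% and 10% of all genes. Smarcd2, a SWI/SNF subunit, had means of 0.01, -0.50 and 0.47 in CTRL mice at its 3 probe sets, the last 2 past the threshold (limma adjusted p = 0.03 and 0.038). Kmt2c ranged from -0.50 to 1.5 in CTRL mice over 4 probe sets, with 2 past the threshold on the long side. By contrast, both probe sets of Smarcal1, Setd6, Kdm1a and Kdm2a and all 3 of Smarca5 passed in 1 direction in CTRL mice. The position of each probe set along its mRNA was not used here.

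**Figure D4:**
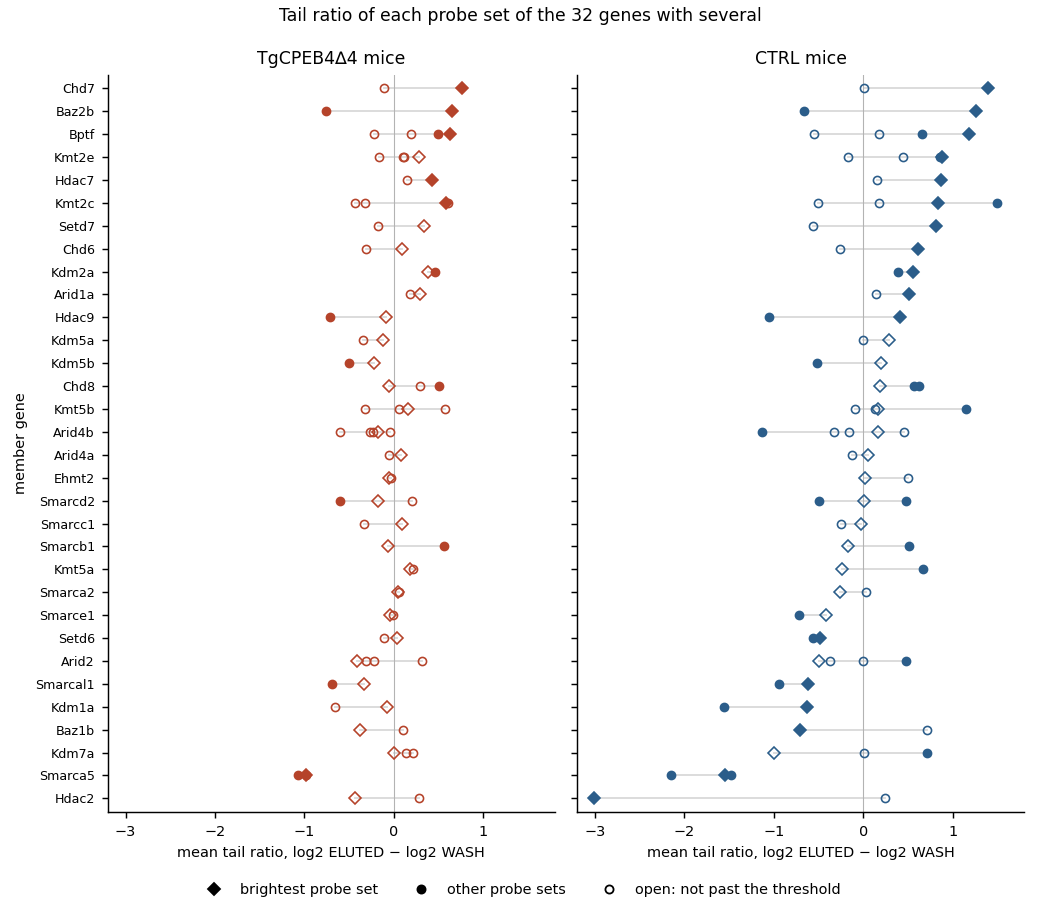
Mean tail ratio (horizontal axis, log2 ELUTED minus log2 WASH) of every probe set of the 32 genes with several, in TgCPEB4∆4 mice (left panel) and CTRL mice (right panel); diamonds are the brightest probe set of a gene, circles the others, and filled symbols passed the threshold. Baz2b has filled symbols on both sides of 0 in both panels, and all 3 symbols of Smarca5 lie below -0.9.

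Other chromatin genes, taken from lists of complexes and enzymes outside the families above, were compared as counts. Of 87 tested, 4 lay toward long tails (4.6%, background 6.5%) and 31 toward short tails (35.6%, background 20.5%) in TgCPEB4∆4 mice, with a median of -0.31. In CTRL mice 13 lay toward long tails (14.9%, background 20.5%) and 46 toward short tails (52.9%, background 39.9%), with a median of -0.44. The other SWI/SNF subunits (Actl6a, Phf10 and Bcl7c among them) had 0 long and 7 short calls among 14 genes in TgCPEB4∆4 mice, and 2 and 8 in CTRL mice. The partners of the KMT2 and SETD1 enzymes (Wdr5, Rbbp5, Dpy30 and others) had 0 long and 3 short calls among 7 genes in TgCPEB4∆4 mice, and 1 and 5 in CTRL mice. Dpy30, a core COMPASS subunit, averaged -1.23 in TgCPEB4∆4 mice and -2.35 in CTRL mice (limma adjusted p = 0.0055 and 0.00045). Of 18 Polycomb genes, which maintain H3K27 methylation and H2A ubiquitination, 1 lay toward long and 6 toward short tails in TgCPEB4∆4 mice, and 3 and 10 in CTRL mice. Of 7 histone acetyltransferases, 2 were long and 2 short in TgCPEB4∆4 mice, and 3 and 3 in CTRL mice, with Crebbp (0.55 and 0.74) and Kat6b (0.88 and 1.12) on the long side in both genotypes. The 7 INO80 and SRCAP genes, which exchange histone variants and space nucleosomes, had 1 long and 3 short calls in TgCPEB4∆4 mice, and 1 and 5 in CTRL mice. The 7 arginine methyltransferases had 0 long and 3 short calls in TgCPEB4∆4 mice, and 0 and 5 in CTRL mice, and the 3 sirtuins 0 long and 2 short calls in each genotype. The 17 partners of deacetylases had 0 long and 5 short calls in TgCPEB4∆4 mice, and 2 and 7 in CTRL mice. The 7 other lysine methyltransferases had 0 calls in TgCPEB4∆4 mice, and 1 long and 1 short call in CTRL mice. No test of these lists against each other or against the families was made.

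Levels between genotypes were compared next, in each preparation and in the tail ratio. No chromatin gene passed the adjusted threshold in any of these 4 comparisons, nor did any of the 27022 probe sets (background 0.0% in each). The lowest adjusted p among the chromatin genes by limma was 0.42 in INPUT, 0.28 in ELUTED, 0.16 in WASH and 0.37 in the tail ratio. At an unadjusted p under 0.05 there were 3 chromatin genes in INPUT (background 11.3%), 6 in ELUTED (18.1%), 5 in WASH (16.7%) and 5 in the tail ratio (14.1%), of 63 each. The median difference over the chromatin genes, TgCPEB4∆4 minus CTRL, was 0.04 in INPUT, -0.01 in ELUTED, 0.06 in WASH and -0.09 in the tail ratio, against 0.03, 0.08, 0.03 and 0.02 over all genes. When the values were quantile-normalized again the medians were -0.006 in INPUT, -0.11 in ELUTED, -0.01 in WASH and -0.13 in the tail ratio, so the sign in INPUT and WASH depended on the scaling. The 95% interval of a difference, not adjusted for the number of probe sets, reached a median of 0.26 to either side in INPUT, 0.51 in ELUTED, 0.24 in WASH and 0.49 in the tail ratio. Differences within that width could not be resolved with 3 mice a genotype. Larger ones, up to 0.54 in INPUT, did not pass the adjusted threshold either.

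**Figure D5:**
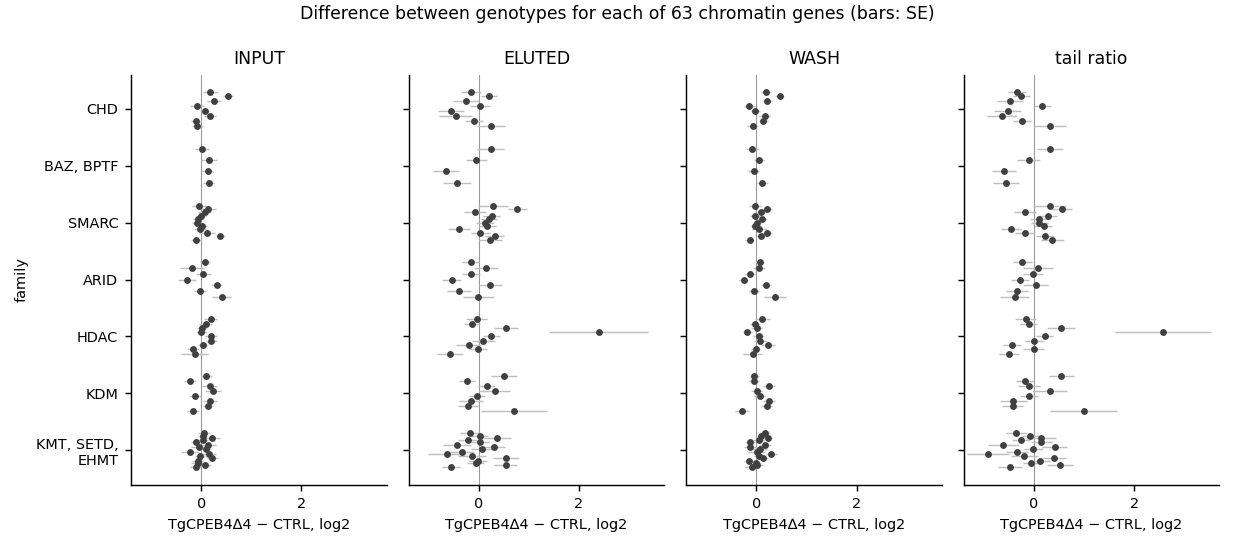
Difference between genotypes (horizontal axis, TgCPEB4∆4 minus CTRL on the log2 scale) for each of the 63 chromatin genes (points, by family) in INPUT, ELUTED, WASH and the tail ratio; bars are the standard error. None passed the adjusted threshold, and the point farthest to the right in ELUTED (2.40) and in the tail ratio (2.58) is Hdac2.

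In INPUT, Chd3, an ATPase of the NuRD complex, had the smallest p. Its values were 9.89, 9.99 and 9.82 in TgCPEB4∆4 mice, against 9.36, 9.44 and 9.30 in CTRL mice, with a difference of 0.54 ± 0.10 (SE, limma adjusted p = 0.42). The same order without overlap held in WASH, with 10.23, 10.19 and 10.31 in TgCPEB4∆4 mice against 9.82, 9.83 and 9.69 in CTRL mice (0.46 ± 0.09 SE, adjusted p = 0.16). Smarcd3 followed in INPUT with 9.28, 9.25 and 9.30 in TgCPEB4∆4 mice, against 8.87, 8.88 and 8.93 in CTRL mice (0.38 ± 0.09 SE, adjusted p = 0.42). Arid4a, a subunit of a Sin3 deacetylase complex, had 8.53, 8.34 and 8.64 in TgCPEB4∆4 mice, against 8.14, 8.26 and 8.17 in CTRL mice (0.31 ± 0.11 SE, adjusted p = 0.43). In WASH all TgCPEB4∆4 values lay above all CTRL values for 8 of the 63 genes (background 16.1%) and below them for 2 (background 9.2%). In INPUT all TgCPEB4∆4 values lay above all CTRL values for 6 of the 63 genes (background 13.2%) and below them for 3 (background 6.63%).

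Markers of other cells were compared in the same INPUT arrays, and none passed the threshold (lowest limma adjusted p = 0.42). All 6 endothelial and mural markers, all 6 of the meningeal and fibroblast markers tested, 5 of 6 astrocyte markers and 5 of 7 microglial markers had higher means in TgCPEB4∆4 mice. Their summed levels were 11.41 to 11.54 in TgCPEB4∆4 mice against 11.14 to 11.40 in CTRL mice for endothelium, and 10.72 to 11.33 against 10.32 to 10.53 for meninges. For astrocytes the sums were 13.62 to 14.35 in TgCPEB4∆4 mice against 13.61 to 13.63 in CTRL mice (log2 of the sum), and for microglia 11.64 to 12.79 against 11.54 to 11.64. Striatal neuron markers had higher means in TgCPEB4∆4 mice for 2 of 6 genes (sums 12.10 to 12.26 against 12.28 to 12.38). Cortical excitatory neuron markers did for 1 of 4 genes (11.69 to 12.10 against 11.93 to 12.10). Oligodendrocyte markers did for 1 of 5 (13.00 to 13.13 against 13.10 to 13.22), thalamus markers for 2 of 2 and the cerebellum marker for 0 of 1. Over all genes, 6843 of 11974 had higher means in TgCPEB4∆4 mice. Of the 6 meningeal markers tested, 3 were above the highest nonspecific control on all 6 INPUT arrays. The part of these cell types in the INPUT values of the chromatin genes was not tested.

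In ELUTED, Smarca5 was at 7.81, 7.61 and 7.85 in TgCPEB4∆4 mice, against 6.73, 7.22 and 7.01 in CTRL mice, a difference of 0.77 ± 0.19 (SE, limma adjusted p = 0.28). Setd7 was at 10.41, 10.49 and 10.23 in TgCPEB4∆4 mice, against 11.08, 10.70 and 11.00 in CTRL mice (-0.55 ± 0.18 SE, adjusted p = 0.28). Arid3b was at 7.87, 8.16 and 7.89 in TgCPEB4∆4 mice, against 8.72, 8.27 and 8.56 in CTRL mice (-0.54 ± 0.19 SE, adjusted p = 0.29). The genotypes did not overlap for these 3 genes. ELUTED values of all TgCPEB4∆4 mice lay above all CTRL values for 9 of 63 genes (background 18.2%) and below them for 4 (background 7.64%). Without CTRL mouse 2, limma called Hdac2 (3.603, adjusted p = 0.017) and Smarca5 (0.89, adjusted p = 0.037) as higher and Setd1b (-1.06, adjusted p = 0.049) as lower in ELUTED of TgCPEB4∆4 mice. In that fit 9.5% of all genes were called higher and 0.71% lower, against 3.17% and 1.59% of the chromatin genes. The Hdac2 and Smarca5 differences include the values of 5.22 and 6.73 in CTRL mouse 1, both below the highest nonspecific control of that array (7.30).

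In the tail ratio, all TgCPEB4∆4 mice lay below all CTRL mice for 10 of 63 chromatin genes (background 7.36%): Arid3b, Chd1, Chd3, Chd4, Chd7, Chd8, Hdac7, Hdac9, Kmt2c and Smarcd1. They lay above all CTRL mice for 4 (background 11.9%): Hdac11, Kdm1a, Smarca5 and Smarcal1. The CHD family held 5 of the 10 among its 8 genes, with a median difference of -0.30 and no gene past an unadjusted p of 0.05. The smallest p-values of the 63 belonged to Smarca5 (difference 0.56 ± 0.20 SE), Hdac2 (2.58 ± 0.96), Baz2b (-0.60 ± 0.24), Hdac9 (-0.50 ± 0.20), Hdac7 (-0.44 ± 0.18) and Smarcd1 (-0.46 ± 0.20), each with a limma adjusted p of 0.37. For Smarca5 and Hdac2, short in CTRL mice, the TgCPEB4∆4 means were closer to 0 from below. For Hdac7 and Baz2b, long in CTRL mice, they were closer to 0 from above. The mice of the genotypes overlapped for Hdac2 and Baz2b. The spread of all tail ratios, given above, was wider in CTRL mice 1 and 3 than in any TgCPEB4∆4 mouse. In CTRL mouse 2 it lay within the range of the TgCPEB4∆4 mice. The part of the spread in these differences was not tested. With the tail ratios of each mouse rescaled to one common SD over all probe sets, the median difference of the CHD family was -0.21. That of the SMARC family was then 0.03, and 0.19 without rescaling. That of the ARID family was -0.04, and -0.23 without rescaling. The BAZ and BPTF genes had -0.127 with rescaling and -0.332 without. The KMT, SETD and EHMT group had -0.124 with rescaling and -0.065 without. The KDM genes had -0.103 and -0.097, and the HDAC genes 0.043 and -0.003. Over all 63 genes the median difference was -0.091 with rescaling and -0.095 without. Without CTRL mouse 2, 1 chromatin gene passed as higher (Hdac2, 3.77, adjusted p = 0.01) and 3 as lower in TgCPEB4∆4 mice (Bptf, Kmt2e and Setd1b), which is 1.59% and 4.76% of the 63, against 9.18% and 1.25% of all genes in that fit. CTRL mouse 2 was the control mouse whose tail ratios spread least.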

How the data were processed

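Total RNA and its long-tail and short-tail poly(U) fractions from 3 TgCPEB4∆4 and 3 CTRL mice were amplified from 5 ng over 21 cycles and hybridised to 18 arrays, per the labels' protocols. The authors deposited log2 values made with RMA, per the submitters' processing notes; its version and the genome build are not stated in these sources. Of 45141 rows, 104 control probe sets were left out. Genes were named from the platform annotation: 28898 probe sets have 1 gene symbol, and no symbol was changed by the RefSeq table. No scanner intensities were used, and precision is limited by the number of arrays.

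Probe sets with a mean above the 40th percentile were kept. The tail ratio (ELUTED minus WASH within a mouse, the pairing given by the replicate number of the labels) and each preparation were fitted over all probe sets with limma 3.58.1 in R 4.3.3 (lmFit, eBayes, two-sided, Benjamini-Hochberg adjustment), and standard errors pool 6 mice. The procedure was also run on simulated data with independent noise smaller than that observed. That simulation held no pairing within mice and no unequal spread between mice. It therefore cannot show how the fits behave with these features of the data. The labels name no batch, so none was tested. Between genotypes, the deviations of same-numbered mice had correlations of mixed sign in the tail ratio (0.357, -0.313 and 0.268). These few values cannot decide whether the numbers pair mice of different genotype, and the main fits did not pair them. Within mice, deviations of ELUTED and WASH had correlations of 0.716, 0.333 and 0.427 in TgCPEB4∆4 mice. In CTRL mice these were -0.066, 0.162 and -0.025.

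Genes named with values are, per family, up to 3 of the largest tail ratios in each direction in CTRL mice among those past the threshold, the 6 smallest p-values of each genotype comparison, genes chosen for their role, and genes whose probe sets pass in opposite directions; other genes named were chosen after their values were seen. The members, lists and tests were chosen with earlier results of these data known. A planned description of protein lengths was not made.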

Additional observations from a re-analysis of the deposited data

How the results depend on the processing

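The alternatives were no filter and a 60th percentile filter on dim probe sets, quantile normalization again, centring each array on its median, trended robust eBayes, fits with and without the pairing, tail ratios rescaled to one SD, averaging a gene's probe sets, and leaving out each mouse. In TgCPEB4∆4 mice the calls were 15 long and 13 short with rescaled tail ratios (all genes 16.6% and 41.6%). With the mean of probe sets they were 4 long and 6 short (6.35% and 9.52%, all genes 7.13% and 23.7%). With no filter, 9 of 68 chromatin genes were long and 5 short (13.2% and 7.35%, against 7.05% and 20.2% of the 11974 genes past the filter). The median tail ratio in TgCPEB4∆4 mice was 0.174 after quantile normalization and 0.088 after centring. In CTRL mice quantile normalization gave 28 long and 8 short calls (all genes 24.7% and 29.9%) and a median of 0.346. After quantile normalization and after centring, the median difference was -0.014 and -0.017 in WASH (0.056 as reported), -0.006 and -0.012 in INPUT (0.04) and -0.109 and -0.1 in ELUTED (-0.013). With the mean of probe sets, Baz2b in TgCPEB4∆4 mice (-0.056) and Baz1b (0.002) and Hdac9 (-0.318) in CTRL mice turned their sign, and with quantile normalization Chd3 (0.371) and Hdac6 (0.389) in CTRL mice did. The cause was not tested. Leaving out 1 mouse gave 0 to 10 long and 0 to 7 short calls in TgCPEB4∆4 mice (median -0.062 to 0.005, all genes 0 to 12% and 0 to 33.7%). In CTRL mice it gave 12 to 20 long and 9 to 15 short calls (median -0.019 to 0.124, all genes 11.6% to 21.3% and 33.4% to 38.8%). For the difference in tail ratio it gave 0 to 1 higher and 0 to 3 lower calls (median -0.12 to -0.014, all genes 0 to 9.18% and 0 to 1.25%). In ELUTED it gave 0 to 2 higher and 0 to 1 lower calls (median -0.086 to 0.044, all genes 0 to 9.5% and 0 to 0.71%). In INPUT and WASH it gave 0 calls (all genes 0% in INPUT, and at most 1.46% higher and 0.0835% lower in WASH). With the replicate number as a block between genotypes, 0 chromatin genes passed in any comparison. Each number holds 1 mouse of each genotype, so this block could not change the estimates, only their errors. The medians were therefore those of the main fits, -0.095 for the tail ratio, 0.04 in INPUT, -0.013 in ELUTED and 0.056 in WASH. Without the pairing within mice the calls were 7 long and 4 short in TgCPEB4∆4 mice (all genes 6.73% and 17.1%). In CTRL mice they were then 16 long and 14 short (all genes 19.6% and 38.1%). Of the 17 long and 13 short calls in CTRL mice, 9 and 5 passed under every alternative in which they were tested, and of those in TgCPEB4∆4 mice none did. Among tail ratios of named genes, alternatives lost 39 and gained 38 calls in TgCPEB4∆4 mice, and lost 52 and gained 12 in CTRL mice, sign turns included. Of 1504 further values of named genes that kept their side of the threshold, 55 changed sign while passing in neither setting. With 3 mice a genotype, and values near the nonspecific controls for some short calls, small differences were not detectable.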
